A study of Mus musculus with 18 samples.

Results

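The genes Lncenc1, Dkkl1, Spink2 and Trh were followed from the second day of factor expression to established pluripotent lines. Each was read by 1 probe carrying a single gene symbol, so that 4 probes of the 23410 named probes on the array are described here. They were chosen because their signals differed strongly between the 2 reprogramming cassettes on day 8, and that day 8 difference is therefore given as a description without a test.

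The study reprogrammed Nanog-GFP mouse embryonic fibroblasts, which carry the doxycycline-responsive transactivator rtTA at the ROSA26 locus, with piggyBac transposons that express Oct4, Klf4, c-Myc and Sox2 from 1 polycistronic message together with mCherry. The OKMS cassette holds a shorter Klf4 cDNA and gives low KLF4 protein, whereas the OK+9MS cassette holds a longer Klf4 cDNA and gives high KLF4 protein, so the groups are called low-KLF4 and high-KLF4. All sorted samples were mCherry-positive cells cultured with doxycycline at 1 µg/mL, a bulk mixture in which every cell carried a cassette but cells at different stages were pooled. Arrays were available for days 2, 4 and 18 (1 for each cassette and day), for day 8 (2 for each cassette), for the low-KLF4 iPSC clones A7 and A9, for the high-KLF4 iPSC clones A10 and H10, for the Nanog-GFP mESC line 1A2 (2 arrays) and for primary keratinocytes of newborn pups at postnatal day 2 (2 arrays), which makes 18 arrays in 12 groups. Each iPSC array is 1 clone, the mESC arrays are 1 line, and starting fibroblasts were not analysed here. The paper reads full reprogramming by Nanog-GFP activation together with loss of mCherry. The day 18 sort therefore holds cells that had kept mCherry, not the cells that had silenced it. In bulk RNA, a lower signal from fewer expressing cells cannot be told apart from a lower signal from less RNA per cell.

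Reprogramming replaces a fibroblast programme by the self-sustaining transcription network of embryonic stem cells, and cells can pass through states that belong to neither end. Lncenc1 is a long noncoding RNA of naive embryonic stem cells, where it has been linked to RNA-binding proteins and to glycolysis genes. Trh encodes the precursor of thyrotropin-releasing hormone, best known from the hypothalamus and also found in mouse embryonic stem cells. Dkkl1, also called soggy, encodes a secreted relative of the Dickkopf WNT antagonists that is found in the sperm acrosome, and Spink2 encodes a Kazal-type inhibitor of acrosomal serine proteases.

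The genes lie on different chromosomes. On GRCm38.p6 Lncenc1 spans chr13:97434970-97497664, Dkkl1 spans chr7:45207525-45212165, Spink2 spans chr5:77205106-77216258 and Trh spans chr6:92242061-92244650. Because KLF4 binds GC-rich and CACCC-type elements and was the factor that differed between cassettes, the 250 bases before a RefSeq start site are shown for each gene, in lower case and read 5′ to 3′ on the gene's strand, with matches on either strand in capitals. The letters searched were GGTGTGG, its variant GGCGTGG, and the GC box GGGCGG. The windows are chr13:97434720-97434969 for Lncenc1 (plus strand), chr6:92244651-92244900 for Trh (minus strand), chr7:45211884-45212133 for Dkkl1 (minus strand) and chr5:77211472-77211721 for Spink2 (minus strand, the outermost of 3 start sites listed).
Lncenc1: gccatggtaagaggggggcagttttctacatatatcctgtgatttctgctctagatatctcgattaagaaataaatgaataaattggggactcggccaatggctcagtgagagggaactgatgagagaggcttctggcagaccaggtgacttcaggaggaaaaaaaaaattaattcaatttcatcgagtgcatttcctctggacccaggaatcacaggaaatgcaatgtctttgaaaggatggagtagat
Trh: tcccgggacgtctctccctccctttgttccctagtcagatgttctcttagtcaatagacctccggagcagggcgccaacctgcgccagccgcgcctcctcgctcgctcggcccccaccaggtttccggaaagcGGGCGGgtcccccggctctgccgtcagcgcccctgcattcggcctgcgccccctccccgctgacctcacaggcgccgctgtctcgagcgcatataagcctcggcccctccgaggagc
Dkkl1: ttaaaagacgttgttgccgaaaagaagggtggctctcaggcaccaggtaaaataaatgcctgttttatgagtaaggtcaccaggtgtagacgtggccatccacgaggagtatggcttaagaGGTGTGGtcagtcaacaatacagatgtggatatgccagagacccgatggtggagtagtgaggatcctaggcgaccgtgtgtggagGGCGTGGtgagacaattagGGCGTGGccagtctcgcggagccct
Spink2: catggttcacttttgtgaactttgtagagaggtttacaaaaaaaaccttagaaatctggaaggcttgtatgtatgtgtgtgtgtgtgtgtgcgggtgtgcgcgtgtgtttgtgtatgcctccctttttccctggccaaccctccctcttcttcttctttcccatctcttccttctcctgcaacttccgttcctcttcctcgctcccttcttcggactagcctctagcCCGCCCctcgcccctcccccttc

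The Dkkl1 window held GGTGTGG at bases -129 to -123 before the start site and GGCGTGG at -44 to -38 and again at -25 to -19, all on the strand of the gene. At least 1 match to either of these motifs was found in 13.5% of 32544 promoter windows of the same length, and at least 3 were found in 0.418%. The windows of Lncenc1, Trh and all 3 Spink2 start sites had neither motif. The Dkkl1 and Spink2 windows lie inside the gene spans given above, so sequence before the outer 5′ end of those spans was not searched. A GGGCGG box, present in 33.0% of windows, was found once in the Trh window at -117 to -112 and once in the outermost Spink2 window at -23 to -18, on the opposite strand. The octamer ATTTGCAT (1.62% of windows) and CATTGT (10.5%), searched on both strands, were in none of the windows of the 4 genes. The motifs were selected after the sequences had been seen, and a match is a description of letters, not evidence of binding.

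**Figure D1:**
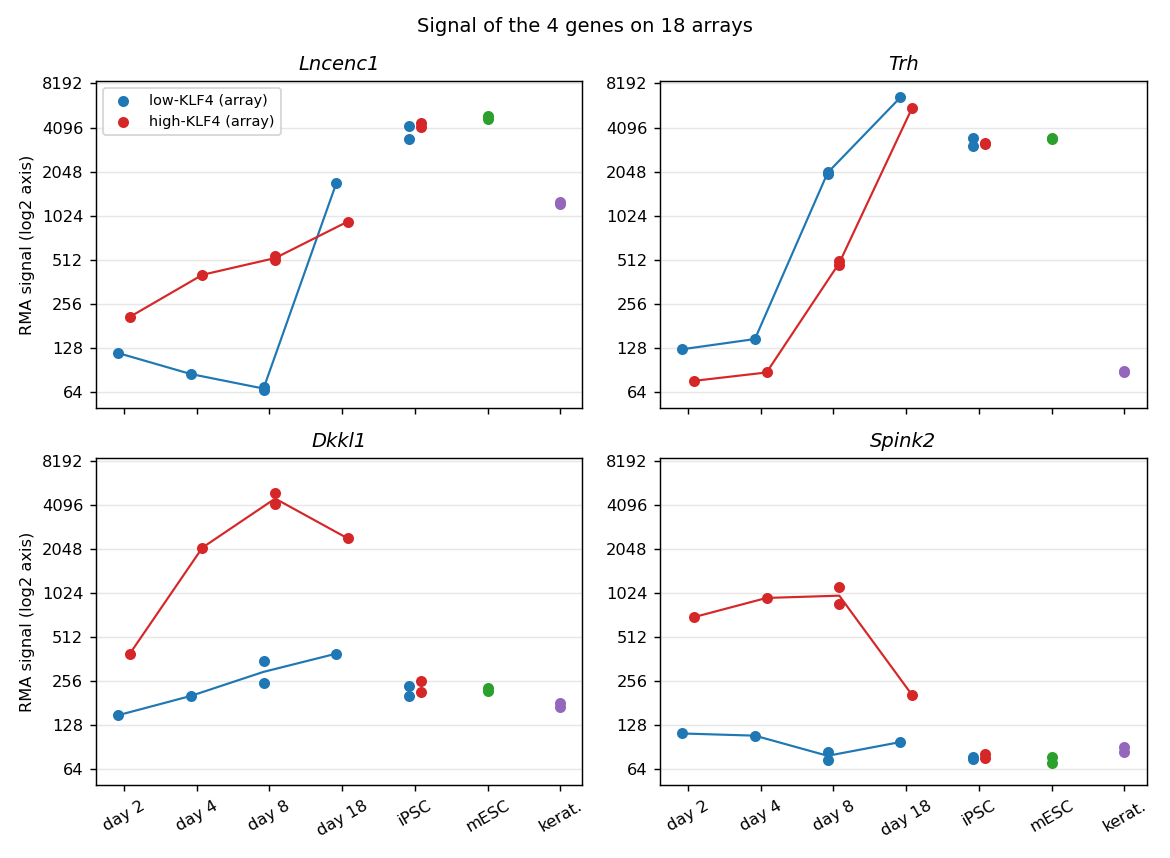
RMA signal of the 4 genes (log2 axis) in low-KLF4 cells (blue), high-KLF4 cells (red), mESC (green) and keratinocytes (purple); each point is 1 array and lines join group means from day 2 to day 18. Lncenc1 and Trh read at least 3393 and 3065 in the iPSC and mESC arrays, whereas Dkkl1 and Spink2 are high in high-KLF4 sorted cells and read at most 256.6 and 81.5 in the iPSC and mESC arrays.

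The labels of the reference samples were first set against marker genes. Nanog read 5349 to 6755 in the iPSC clones and mESC and at most 70.8 in keratinocytes, and Esrrb, Sox2 and Dppa5a were likewise high in all 6 pluripotent arrays. Zfp42, a marker of naive pluripotency, was the exception, with 2237 to 2386 in mESC but 174.2 to 369.8 in the 4 iPSC clones. Keratinocytes read 11903 to 12142 for Krt5 and 9677 to 10144 for Krt14, the basal keratins, while Krt15 stayed at 115.2 to 126.5. The paired day 8 arrays differed in fibroblast markers within both cassettes. Col1a1 read 6952 and 1783 in low-KLF4 cells and 6367 and 1852 in high-KLF4 cells.

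As a group, the 4 genes did not share a pluripotent pattern. Lncenc1 and Trh stood between the 94.9th and 97.2nd percentile of all probes on the array in the 6 iPSC and mESC arrays. Dkkl1 stood between the 55.4th and 60.0th percentile and Spink2 between the 30.5th and 34.9th in the same arrays. The data therefore go against calling Dkkl1 and Spink2 pluripotent-cell genes, and they are described as genes that were high in high-KLF4 sorted cells.

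Lncenc1, which was high in the pluripotent arrays, read higher with high KLF4 than with low KLF4 on days 2, 4 and 8. In high-KLF4 cells its signal was 208.8 at day 2, 404.8 at day 4, 546.9 and 507.3 in the day 8 pair and 935.3 at day 18. In low-KLF4 cells it was 118.5 at day 2, 85.2 at day 4, 66.3 and 69.3 in the day 8 pair and 1702 at day 18. The high-KLF4 series was higher at each later day, whereas the low-KLF4 series was lowest on day 8 and above the high-KLF4 series on day 18. The iPSC clones read 3393 (A7), 4201 (A9), 4128 (A10) and 4378 (H10), the mESC arrays 4882 and 4675, and keratinocytes 1271 and 1232. Keratinocytes thus exceeded every high-KLF4 sorted array and every low-KLF4 sorted array but that of day 18.

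Between cassettes Lncenc1 differed by 0.82, 2.25 and 2.96 at days 2, 4 and 8 (log2, high minus low), the day 8 value being the 49th highest of the 23410 probes. On day 18 the sign had turned, with a log2 difference of -0.86 between the single arrays. Days 2 and 4, which did not choose the genes, were tested together in a limma fit of all 12 groups whose spread comes from the paired arrays, and 0.965% of all probes passed at adjusted p below 0.05 (0.786% higher and 0.179% lower with high KLF4). Lncenc1 was 2.89-fold higher (log2 1.53, SE 0.11, limma adjusted p = 0.000561). On day 2 alone it did not pass (limma adjusted p = 0.158), nor did it in a fit of the 4 arrays of days 2 and 4 alone with day as a block (limma adjusted p = 0.0702).

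Lncenc1 was also placed on the log2 distance from day 2 to the pluripotent mean. High-KLF4 cells stood at 22.0%, 30.7% and 49.8% of their distance at days 4, 8 and 18. The low-KLF4 signal was further from that mean than on day 2, at -9.22% on day 4 and -15.6% on day 8. Low-KLF4 arrays of days 2 to 8 read 66.3 to 118.5, so these negative shares compare low signals. By day 18 the low-KLF4 share was 74.5%. Because the day 18 cells had kept mCherry, these shares place signals and do not measure progress of cells to iPSC. The largest step of Lncenc1 between sampled days was the 25.1-fold increase in low-KLF4 cells between days 8 and 18. These steps compare groups of 1 or 2 arrays and were not tested.

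Trh differed in the opposite direction. In low-KLF4 cells the signal was 125.7 at day 2, 147.6 at day 4, 2051 and 1976 in the day 8 pair and 6574 at day 18. In high-KLF4 cells it was 76.5 at day 2, 87.3 at day 4, 501.3 and 474.1 in the day 8 pair and 5561 at day 18. Both series were higher at each later day, and the low-KLF4 signal was above the high-KLF4 signal every time. The 4 iPSC clones lay between 3065 and 3480, the mESC arrays at 3419 and 3478, and keratinocytes at 89.4 and 87.4.

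The cassette difference of Trh was -0.72, -0.76, -2.05 and -0.24 at days 2, 4, 8 and 18 (log2, high minus low), and the day 8 value was the 17th lowest of all probes. Over days 2 and 4 together it was 1.67-fold lower with high KLF4 (log2 -0.74, SE 0.08, limma adjusted p = 0.00537). The early arrays read 76.5 to 147.6, close to the 2 keratinocyte arrays, so the early difference is one between low signals. Low-KLF4 cells had covered 84.9% of the log2 distance from day 2 to the pluripotent mean by day 8, against 49.2% for high-KLF4 cells. In the day 18 cells, which had kept mCherry, the shares were 121% and 114%, above the pluripotent mean for both.

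Dkkl1 was high in the later high-KLF4 sorted cells. High-KLF4 cells read 392.6 at day 2, 2087 at day 4, 4130 and 4927 in the day 8 pair and 2409 at day 18. Low-KLF4 cells read 149.9, 203.0, 250.7 and 350.2, and 394.6 on the same days. Every high-KLF4 sorted array but that of day 2 was above all 13 arrays outside the high-KLF4 time course, of which the highest was the low-KLF4 day 18 array at 394.6. The iPSC clones spanned 201.7 to 256.6, the mESC arrays read 228.7 and 219.6, and keratinocytes 182.0 and 171.6.

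The log2 difference of Dkkl1 between cassettes was 1.39, 3.36, 3.93 and 2.61 at days 2, 4, 8 and 18, and on day 8 it was the 11th highest of all probes. Over days 2 and 4 Dkkl1 was 5.19-fold higher (log2 2.38, SE 0.17, limma adjusted p = 0.000571). The day 2 difference alone did not pass (limma adjusted p = 0.128). The low-KLF4 signal was 1.98-fold higher on day 8 than on day 2, which was not tested.

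Spink2 was already split on day 2. High-KLF4 cells read 700.0 at day 2, 946.9 at day 4, 860.5 and 1119 in the day 8 pair and 206.2 at day 18. Low-KLF4 cells read 112.6, 108.8, 84.4 and 74.5, and 98.4 on the same days. The 5 high-KLF4 sorted arrays were above all 13 others, whose highest value was 112.6. The iPSC clones lay between 75.9 and 81.5, the mESC arrays at 71.3 and 77.4, and keratinocytes at 84.0 and 91.5.

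Between cassettes Spink2 differed by 2.64, 3.12, 3.63 and 1.07 at days 2, 4, 8 and 18 on the log2 scale, the day 8 value being the 20th highest. Over days 2 and 4 it was 7.36-fold higher with high KLF4 (log2 2.88, SE 0.13, limma adjusted p = 4.12e-05). It was the only one of the 4 genes to pass on day 2 alone as well (limma adjusted p = 0.00152). From day 8 to day 18 the high-KLF4 signal fell 4.76-fold, whereas that of Dkkl1 fell 1.87-fold; the 2 declines were not tested against each other.

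**Figure D2:**
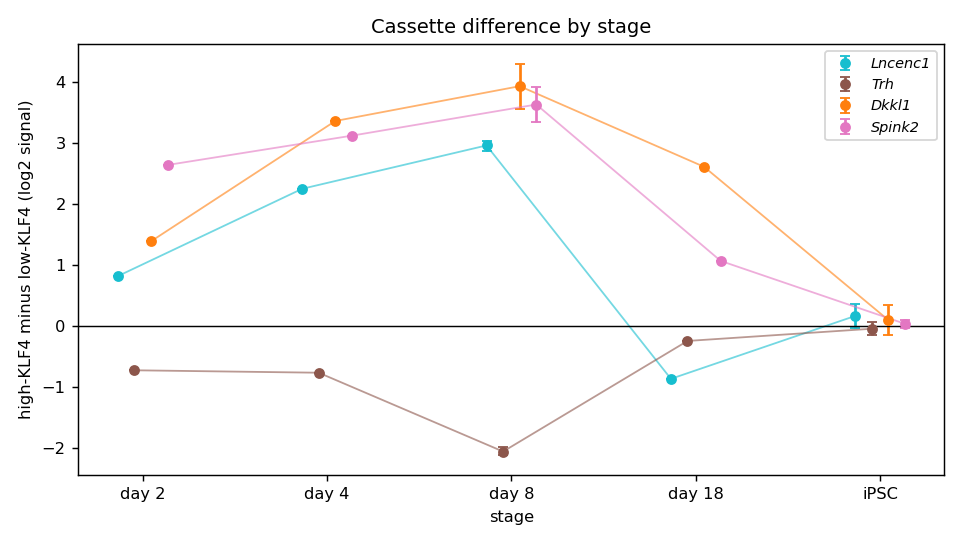
High-KLF4 minus low-KLF4 log2 signal by stage; points are differences of group means, and bars on day 8 and iPSC span the lowest to the highest difference between single arrays of the 2 cassettes, while days 2, 4 and 18 have 1 array per cassette. The 4 differences are between -0.04 and 0.17 in the iPSC clones.

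None of the 4 differences between cassettes was found in the iPSC clones. The log2 difference between the high-KLF4 and low-KLF4 clones was 0.17 for Lncenc1 (95% interval -0.07 to 0.42), 0.10 for Dkkl1 (-0.29 to 0.50), 0.04 for Spink2 (-0.26 to 0.34) and -0.04 for Trh (-0.23 to 0.15). No probe of the array passed in this limma comparison (0%), with 224 probes at an unadjusted p below 0.05. The change in the cassette difference from days 2 and 4 to the clones was then tested itself, and 0.269% of all probes passed. It was 1.36 for Lncenc1 (limma adjusted p = 0.0123), 2.27 for Dkkl1 (limma adjusted p = 0.0111) and 2.84 for Spink2 (limma adjusted p = 0.000751), while -0.70 for Trh did not pass (limma adjusted p = 0.0811). Leaving out single clones ended the call for Lncenc1 without A10 or H10 (limma adjusted p = 0.0968 and 0.0841) and for Dkkl1 without A7, A9 or A10 (limma adjusted p = 0.0550, 0.0734 and 0.0759).

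With the 4 day 8 arrays left out, the arrays that chose the genes had no part even in the spread. All 4 early differences then passed again, with limma adjusted p from 2.66e-06 for Spink2 to 0.00215 for Trh. Their log2 estimates were unchanged, since only the spread differed, and no sorted group then had paired arrays. This fit is therefore no independent check of the early differences. The number of probes called rose from 226 to 1353 in that fit, and the Trh difference between days 2 and 4 and the clones then passed (limma adjusted p = 0.0277). A limma fit of days 2, 4 and 18 with day as a block tested for a difference common to these days, and 0.0342% of all probes passed, none of the 4 genes among them. Its log2 estimates were 0.73 for Lncenc1, 2.45 for Dkkl1, 2.27 for Spink2 and -0.57 for Trh (limma adjusted p = 0.642, 0.188, 0.203 and 0.272).

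The clones were next compared with the stem cell line. The iPSC minus mESC difference on the log2 scale was -0.25 for Lncenc1 (95% interval -0.47 to -0.04), 0.02 for Dkkl1 (-0.32 to 0.36), 0.07 for Spink2 (-0.19 to 0.33) and -0.10 for Trh (-0.26 to 0.07). No member passed (limma adjusted p = 0.192, 0.967, 0.810 and 0.545), in a comparison where 4.31% of all probes did. For Lncenc1 the interval lay below 0 before adjustment, and 4 of 4 clones read below both mESC arrays.

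Against keratinocytes, where 44.3% of all probes passed, the pluripotent arrays were 37.3-fold higher for Trh (log2 5.22, SE 0.07, limma adjusted p = 3.12e-09) and 3.39-fold higher for Lncenc1 (log2 1.76, SE 0.09, limma adjusted p = 1.43e-06). Dkkl1 (log2 0.36, limma adjusted p = 0.0727) and Spink2 (log2 -0.19, limma adjusted p = 0.188) did not pass, although both did without the day 8 arrays (limma adjusted p = 0.0125 and 0.0494).

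Set against the first days of the low-KLF4 series, where 37.9% of all probes passed, the pluripotent arrays were 42.3-fold higher for Lncenc1 and 24.2-fold higher for Trh (limma adjusted p = 1.53e-08 for both). Lncenc1 ranked 10th and Trh 30th from the top of the named probes in this comparison. Spink2 was 1.44-fold lower in pluripotent arrays (limma adjusted p = 0.00581), and Dkkl1 (log2 0.38) did not pass (limma adjusted p = 0.0661), though it did without the day 8 arrays (limma adjusted p = 0.0113).

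Relative to high-KLF4 cells of days 2 and 4, where 42.2% of all probes passed, the pluripotent arrays were 14.6-fold higher for Lncenc1 and 40.4-fold higher for Trh (limma adjusted p = 6.6e-08 and 7.83e-09). The same arrays were 4.00-fold lower for Dkkl1 and 10.6-fold lower for Spink2 (limma adjusted p = 2.12e-05 and 2.69e-07). The comparisons with both cassettes share the pluripotent arrays.

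Day 18 sorted cells, which were still mCherry-positive, differed from the pluripotent arrays in all 4 genes. The comparison was added after the values had been seen, and 32% of all probes passed in it. Lncenc1 was 3.37-fold lower on day 18 (log2 -1.75, limma adjusted p = 7.34e-06), whereas Trh was 1.83-fold higher (log2 0.87, limma adjusted p = 6.48e-05). The sorted cells were thus above the pluripotent level of Trh and below that of Lncenc1. Dkkl1 was 4.31-fold higher (log2 2.11, limma adjusted p = 3.45e-05) and Spink2 1.86-fold higher (log2 0.89, limma adjusted p = 0.000483). For Dkkl1 the high-KLF4 array alone gave 3.41 and the low-KLF4 array alone 0.8 on the log2 scale. The Spink2 difference rested on the high-KLF4 array, since the low-KLF4 array alone gave 0.36 (limma adjusted p = 0.100). Trophoblast markers moved with day 18, with a mean log2 signal over 9 genes of 8.64 and 8.95 in the sorted arrays against 7.29 to 7.52 in the pluripotent arrays, and their part in these values was not tested.

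The order of the 12 groups summarises each gene. Lncenc1 ran from mESC through the high-KLF4 and low-KLF4 iPSC clones, low-KLF4 day 18, keratinocytes and high-KLF4 days 18, 8, 4 and 2 down to low-KLF4 days 2, 4 and 8. None of its 11 gaps between neighbours was below the pooled SD of 0.10 (log2) between paired arrays. However, the low-KLF4 iPSC pair alone had an SD of 0.22, above the gap of 0.17 between the iPSC groups, so their order was not resolved. Trh ran from low-KLF4 and high-KLF4 day 18 through mESC and both iPSC groups to low-KLF4 and high-KLF4 day 8, low-KLF4 days 4 and 2, keratinocytes and high-KLF4 days 4 and 2. In that order, the neighbouring low-KLF4 and high-KLF4 iPSC groups differed by less than the pooled SD of 0.06, as did keratinocytes and high-KLF4 day 4.

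For Dkkl1 the order was high-KLF4 days 8, 18 and 4, low-KLF4 day 18, high-KLF4 day 2, low-KLF4 day 8, the high-KLF4 iPSC, mESC and low-KLF4 iPSC groups, low-KLF4 day 4, keratinocytes and low-KLF4 day 2. Its pooled SD was 0.19, and 4 of 11 gaps were smaller, all among the low-KLF4 day 18 to low-KLF4 day 4 groups. For Spink2 the order was high-KLF4 days 8, 4, 2 and 18, low-KLF4 days 2, 4 and 18, keratinocytes, low-KLF4 day 8, the high-KLF4 and low-KLF4 iPSC groups and mESC. There, 5 of 11 gaps were below the pooled SD of 0.13, those between high-KLF4 days 8 and 4, between low-KLF4 days 2 and 4 and among low-KLF4 day 8, both iPSC groups and mESC.

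Over the 12 group means, the log2 signals of Dkkl1 and Spink2 had a Pearson's r of 0.78 and those of Lncenc1 and Trh of 0.57, while Spink2 and Trh had -0.48. These values describe 12 groups that share cell sources and were not tested. Among 9068 single-symbol probes whose group means spanned at least 1 on the log2 scale, the 3 most like each member were found by the same measure. Next to Lncenc1 came Ppp2r2c, a regulatory subunit of protein phosphatase 2A (r = 0.968), Rbm47, an RNA-binding protein (r = 0.961), and Atg13, an autophagy initiation factor (r = 0.96). Ppp2r2c read 277.1 to 373.2 in the pluripotent arrays, 173.3 and 179.9 in keratinocytes and 93.4 to 112.3 in low-KLF4 cells up to day 8, and thus shared the intermediate keratinocyte level.

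Trh was most like Trim71, a stem cell ubiquitin ligase and RNA-binding protein (r = 0.974), Syne4, a nuclear envelope protein (r = 0.968), and Lbr, the lamin B receptor (r = 0.96). Trim71 rose with a smaller mean difference between cassettes on day 8 than Trh, -0.26 against -2.05 on the log2 scale. Its paired day 8 arrays varied, with 382.9 and 808.6 in low-KLF4 cells and 416.3 and 518.6 in high-KLF4 cells. For Syne4 and Lbr the day 8 difference was -1.22 and -0.21, and their paired arrays varied as well. Syne4 read 210.8 and 573.7 in low-KLF4 cells and 121.5 and 182.6 in high-KLF4 cells. Lbr read 1060.5 and 1629.9 against 861.4 and 1502.4. The nearest to Dkkl1 were Ret, a receptor tyrosine kinase (r = 0.951), Misp, a spindle and actin protein (r = 0.948), and Klk14, a kallikrein protease (r = 0.94). Klk14 read 577.4 at day 2, 1458 at day 4, 1285 and 4344 in the day 8 pair and 1097 at day 18 in high-KLF4 cells, and at most 151.3 in any other group. Spink2 was most like Pi16, a peptidase inhibitor (r = 0.988), Kiss1r, the kisspeptin receptor (r = 0.983), and Pfkfb4, a regulator of glycolysis (r = 0.973). Over days 2 and 4, Pi16 (log2 1.70, limma adjusted p = 0.000420) and Kiss1r (2.12, limma adjusted p = 0.00601) also passed. So did Klk14 (3.10, limma adjusted p = 0.0177), while the other 9 genes did not. All these genes were chosen for likeness over group means that include days 2 and 4. Their early p-values are therefore not independent of that choice and are no separate evidence of an early cassette difference.

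**Figure D3:**
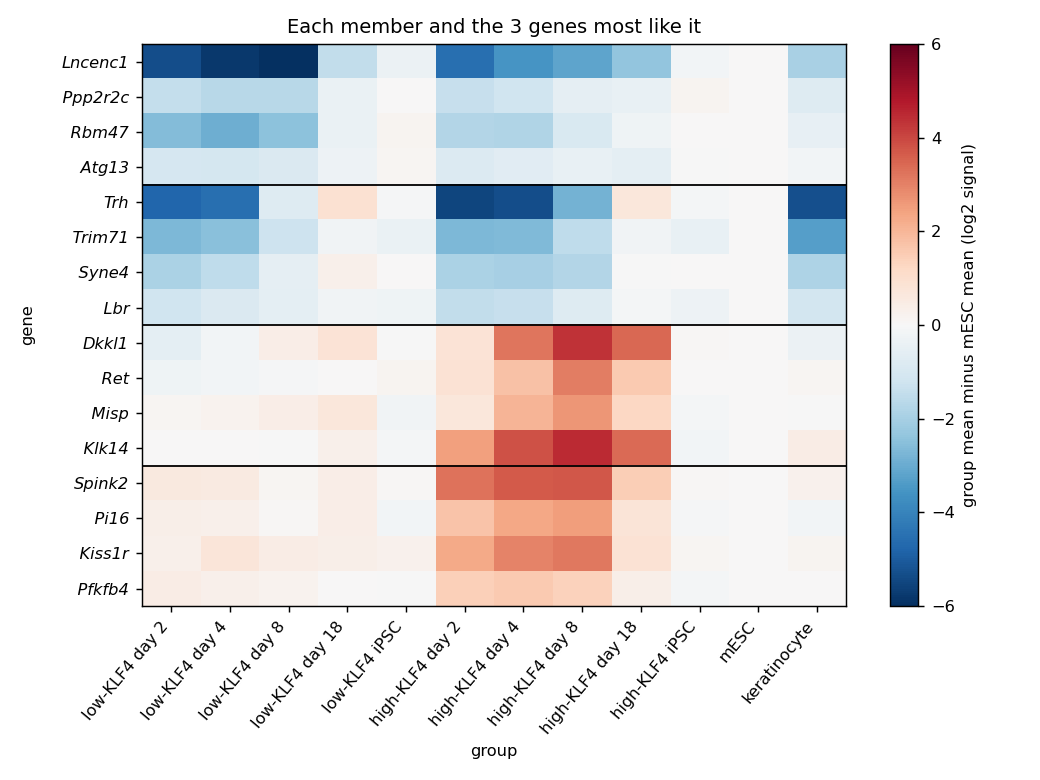
Group mean minus mESC mean (log2 signal, colour) for each of the 4 genes and the 3 genes whose group means followed it most closely (rows), in 12 groups (columns). The Lncenc1 and Trh blocks are blue in early sorted cells and near 0 in iPSC, whereas the Dkkl1 and Spink2 blocks are red only in columns of high-KLF4 days 2 to 18 beyond 1 log2 unit.

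Genes of the families and tissues to which these genes belong were counted beside the share of all probes that passed, 0.965% early and 3.99% on day 8 (2.71% higher and 1.29% lower with high KLF4). Of 26 other sperm acrosome genes, none passed on days 2 and 4 or on day 8, with median log2 differences of -0.01 and -0.03 that equal the medians of all probes. Among 18 other Kazal-type genes none passed early, and on day 8 only Spock2, a proteoglycan with a Kazal-like domain, was lower with high KLF4 (log2 -1.74, 145.4 and 111.1 against 340.4 and 533.1). Of 15 other Dickkopf and WNT coreceptor genes, none passed early and on day 8 only Wif1, a secreted WNT inhibitor, was higher (log2 1.06, 158.9 and 267.9 against 100.9 and 97.2). These counts are too small to stand apart from the shares over all probes.

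No gene among 12 for prohormone processing and TRH receptors passed in either comparison, and neither did any of 13 genes for Lncenc1-binding proteins and glycolysis. Of 38 entries for embryonic stem cell long noncoding RNAs only 7 had a probe, Lncenc1 among them, and none of the other 6 passed.

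Pluripotency genes themselves were split in both directions. Of 29 regulators and stem cell genes, none was higher and 2 were lower with high KLF4 on days 2 and 4, and 5 were higher and 2 lower on day 8. Of all probes, 0.786% were higher and 0.179% lower early, and 2.71% were higher and 1.29% lower on day 8. The median log2 difference was -0.11 early and 0.12 on day 8. Nanog, a core pluripotency factor, went the way of Trh on days 4 and 8 but not on day 2. On day 2 it read 79.5 in low-KLF4 cells and 94.2 in high-KLF4 cells. It read 992.2 against 188.2 on day 4, and 2565 and 2464 against 887.6 and 963.1 on day 8. Its log2 differences were -1.08 early, where only day 4 was lower with high KLF4, and -1.44 on day 8. Nr0b1, which encodes the orphan nuclear receptor DAX1, differed by -3.43 early, with 431.6 and 2233 on days 2 and 4 in low-KLF4 cells against 91.8 and 91.0.

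The 5 genes higher with high KLF4 on day 8 are listed by that difference. Dppa5a, an RNA-binding protein of stem cells, read 460.4 and 498.1 against 83.6 and 89.4 (log2 2.47), and Lin28a, a let-7 regulator, read 557.3 and 829.5 against 182.9 and 181.6 (log2 1.90). In the pluripotent arrays Dppa5a read 6478 to 8295 and Lin28a 1766 to 2516, above both cassettes on day 8. Esrrb, Tcl1 and Dppa2 were the other 3. On days 2 and 4 none of these 5 passed, with log2 differences from -0.05 for Dppa5a to 1.00 for Lin28a.

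**Figure D4:**
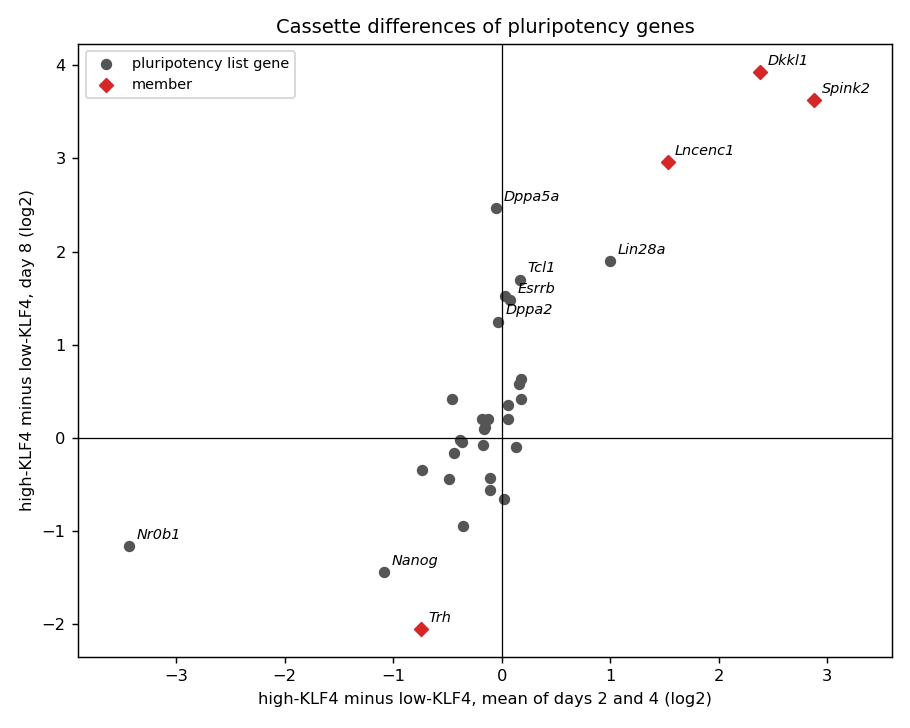
High-KLF4 minus low-KLF4 log2 difference on days 2 and 4 (x axis) and on day 8 (y axis) for 29 pluripotency genes (grey circles) and the 4 genes described here (red diamonds, chosen on the y axis). Trh lies with Nanog and Nr0b1 in the lower left, and Lncenc1, Dkkl1 and Spink2 lie in the upper right; named grey genes are those that passed in either comparison.

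Markers of other cell types were counted in the same comparisons, in which 0.786% of all probes were higher with high KLF4 early and 2.71% on day 8. Of 12 keratinocyte markers, 5 were higher early and 6 on day 8 with none lower, and their mean log2 signal in high-KLF4 cells was 8.26 at day 2, 8.84 at day 4, 8.88 to 9.39 in the day 8 pair and 8.32 at day 18, against 7.07 to 7.61 in low-KLF4 sorted cells. Krt14 differed by 4.50 and Krt6a, a stress keratin, by 4.05 early. Krt5 and Trp63, which define basal keratinocytes, stayed low in high-KLF4 cells of days 2 to 8, with 124.2 to 200.6 for Krt5 and at most 119.2 for Trp63. By day 18 Krt5 read 462.2 with high KLF4 against 117.3 with low KLF4, and Trp63 read 212.0 against 158.5. Keratinocytes themselves had low Dkkl1 and Spink2. The part of these markers in the Dkkl1 and Spink2 signals was not tested.

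Trophoblast markers included 3 of 9 that were higher on day 8 and none early, haematopoietic markers 2 of 11 on day 8 (Gata2 and Cd34), male germ cell markers 1 of 14 on day 8 (Piwil2) and neural markers 1 of 11 in each comparison (Tubb3). Of all probes, 0.786% were higher early and 2.71% on day 8. The single germ cell and neural calls are no sign, in lists of this size, that a list stands apart. No set test was made for the trophoblast and haematopoietic counts. None of the 16 fibroblast and mesenchymal markers passed between cassettes, with day 8 log2 differences from -0.5 to 1.59. These markers differed between the paired day 8 arrays, with a mean log2 signal of 11.51 and 9.69 in low-KLF4 cells and 11.41 and 9.90 in high-KLF4 cells. That spread enters the error of the fit, so the missing calls do not show that the cassettes had equal fibroblast signal. Across the same pairs, first to second array, Lncenc1 changed from 66.3 to 69.3 in low-KLF4 and from 546.9 to 507.3 in high-KLF4 cells, and Trh from 2051 to 1976 and from 501.3 to 474.1. Dkkl1 was higher in the second array of both pairs, at 350.2 against 250.7 and 4927 against 4130. Spink2 was lower in the second low-KLF4 array (74.5 against 84.4) and higher in the second high-KLF4 array (1119 against 860.5). The part of the fibroblast signal in these values was not tested.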

How the data were processed

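RNA of 18 samples was hybridised to Affymetrix Mouse Gene 1.0 ST arrays. The deposited values are intensity values that the authors had normalised by RMA in GeneSpring, linear and between 20.2 and 19538.7 (median per array 139.4 to 161.6), and log2 was taken. Per the labels, groups came from cassette, day or cell type, with 2 arrays in 6 groups and 1 in the others, and nothing states separate animals for each array, so p-values measure only the spread between these arrays. RMA gives no detection call, and the number of arrays limits the precision. Of 28853 probes, 23410 had a symbol and were tested; 1621 of these had several and were named from none.

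One limma fit (limma 3.58.1, R 4.3.3) over 12 groups had 6 residual degrees of freedom, with Benjamini-Hochberg adjustment over the 23410 probes and a threshold of 0.05. Groups of 1 array were assumed to vary like the paired groups. On data simulated for the comparison of days 2 and 4, the fit recovered 77 of 100 probes given a log2 change of 1 and 97 of 100 given a change of 3, with 10 false calls. The simulation drew independent noise with the same spread on every array for each probe, so it cannot check that assumption. Alternatives were a filter on dim probes, a second quantile normalization, limma-trend, single days, leaving out each paired array and, added after the values were seen, leaving out day 8 or blocking on its array number. The members, the 13 gene lists and the tests were chosen with earlier results of these data known, so no list is independent evidence of its direction. Named genes were the members, the 3 genes most like each, the 2 largest called changes in each direction of each list, and the markers; Esrrb, Tcl1 and Dppa2 were named as well, after their values were seen. Promoter sequences are those of RefSeq for GRCm38.p6.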

Additional observations from a re-analysis of the deposited data

Results flagged for a closer look

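For 3 genes the cassette difference on days 2 and 4 was not the one found in the iPSC clones, by a test of the difference between them. High minus low KLF4 shifted between the early cells and the clones by 1.36 on the log2 scale for Lncenc1, 2.27 for Dkkl1 and 2.84 for Spink2 (limma adjusted p = 0.0123, 0.0111 and 0.000751). The early value was positive on both days for each gene. Among the clones, the high-KLF4 and low-KLF4 signals overlapped for each of the 3 genes, with ranges over all 4 clones of 3393 to 4378 for Lncenc1, 201.7 to 256.6 for Dkkl1 and 75.9 to 81.5 for Spink2.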

How the results depend on the processing

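The labels number the second array of each cassette on day 8, and a replicate block on that number was added after seeing the data. The second minus first array differences of the cassettes had r = 0.74 over probes, but with 2 pairs the arrays share only a number. With the block the fit called 921 probes over days 2 and 4, 265 for the early minus iPSC difference, 2947 on day 8 and 3159 between iPSC and mESC. Under this block Trh (-0.70) passed for the early minus iPSC difference and Dkkl1 passed against early low-KLF4 cells (0.38) and keratinocytes (0.36), and no other call of the 4 genes changed. Days 2, 4 and 18 have 1 array per cassette, so their error is borrowed from the paired groups. The most variable pair was low-KLF4 day 8 for Dkkl1 (log2 SD 0.34) and high-KLF4 day 8 for Spink2 (0.27). For Lncenc1 and Trh it was the low-KLF4 iPSC clones (0.22 and 0.13). No called value changed sign, but values near 0 that were not called did. Lncenc1 became -0.02 in the fit of days 2, 4 and 18 without day 4. With paired arrays left out in turn, the cassette difference of the clones was -0.02 to 0.23 for Dkkl1, -0.01 to 0.08 for Spink2 and -0.13 to 0.05 for Trh, and iPSC minus mESC was -0.04 to 0.08 for Dkkl1, which was -0.02 after a second quantile normalization. Over days 2 and 4, day 2 alone lost the calls of Dkkl1 (1.39), Lncenc1 (0.82) and Trh (-0.72), and the 226 probes called became 33 on day 2 alone, 116 on day 4 alone and 142 to 464 when paired arrays were left out in turn; without the 4 day 8 arrays, an alternative chosen after seeing the data, they were 1353. For the early minus iPSC difference, day 2 alone gave 1.28 for Dkkl1 and 0.65 for Lncenc1, neither called, leaving out single arrays gave 2.15 to 2.39 for Dkkl1 and 1.21 to 1.52 for Lncenc1, and the 63 probes called became 19 on day 2 alone, 19 to 166 with paired arrays left out and 537 without the day 8 arrays, where Trh (-0.70) passed. On day 8 the 935 probes called became 493 to 2101 with paired arrays left out and 0 in a fit of the 4 day 8 arrays alone (limma); the log2 difference of Dkkl1 was 3.69 to 4.17, that of Spink2 3.44 to 3.82, and that of Trh -2.13 after a second quantile normalization. The fit of days 2, 4 and 18 called 8 probes, against 26 without the dimmest 30% of probes, 75 with limma-trend, 0 without day 2 and 585 without day 18; Dkkl1 (2.45) and Spink2 (2.27) passed with limma-trend, and Dkkl1 (2.38), Spink2 (2.88) and Trh (-0.74) without day 18, where Lncenc1 (1.53) did not. Between iPSC and mESC the 1008 probes called became 625 without the dimmest probes, 308 to 1376 with paired arrays left out and 3367 without the day 8 arrays. Against early cells, day 4 alone called 6298 probes for high KLF4 and 4623 for low KLF4, and Dkkl1 passed against low KLF4 on day 2 alone (0.59), without all of day 8 (0.38) or without either low-KLF4 day 8 array (0.33 to 0.42 over all arrays left out). Against keratinocytes Dkkl1 (0.36; 0.31 to 0.40 over all arrays left out) passed without either low-KLF4 day 8 array or without all of day 8, and Spink2 (-0.19) passed without all of day 8. On day 18 the high-KLF4 array alone called 4522 probes, and the low-KLF4 array alone lost Spink2 (0.36). The causes were not tested.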
